A study of Mus musculus with 3 samples.

Results

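The regions described here are 200 bp bins of the mouse genome (mm9) that were enriched in CTCF ChIP-BisSeq, lay away from promoters and were methylated at an intermediate level. CTCF ChIP-BisSeq is chromatin immunoprecipitation with an anti-CTCF antibody followed by bisulfite sequencing. Its reads are enriched for DNA molecules that had been bound, and some can come from unbound molecules. A bin was called enriched when the mean number of observations per listed CpG was at least 15 in each of 2 ChIP-BisSeq replicates and at most 50 in the REST knockout library, where an observation is 1 call of a CpG as methylated or unmethylated. It was called distal when its centre was over 1 kb from every protein-coding transcription start site (TSS), and intermediate when 20% to 60% of its observations were methylated in each replicate. These limits left 6000 bins, which is 24.8% of the 24232 distal enriched bins and part of 27133 enriched bins among 7062395 autosomal bins with a listed CpG. Of the other distal enriched bins, 10073 were below 20% in both replicates (low), 1346 were above 60% in both (high) and 6813 fell on different sides of a limit in the 2 replicates. Since coverage and methylation in ChIP-BisSeq chose the bins, their values in those libraries are given as a description.

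Both ChIP-BisSeq libraries were made from wild type mouse embryonic stem (ES) cells, of the strain given as Mixed (129-C57Bl/6), and each pooled 5 ChIP experiments. They were set beside a single whole-genome bisulfite (WG-BisSeq) library from ES cells of the strain given as Black Agouti 129, in which the gene of the transcriptional repressor REST was knocked out. Genotype, strain and assay differ together between the 2 kinds of library and cannot be told apart, and the REST knockout library has no replicate. Nothing in the labels says that the 2 ChIP-BisSeq libraries came from separate cultures, so the spread between them may be technical. Replicate 1 held 13411280 observations, replicate 2 held 25262179 and the REST knockout library held 273375318. In the REST knockout library 2 exons of Rest, at chr5:77695221-77695438 and chr5:77696957-77697848, had 0.0857 and 0.293 observations per CpG, against 29.7 in the first exon. The same exons had 0 and 0.683 observations per CpG in replicate 1 and 3.40 and 4.22 in replicate 2. Within 500 bp of the TSS of the ES cell genes Pou5f1, Sox2, Zfp42 and Nanog, methylation in the REST knockout library was between 2.31% and 16.7%, whereas at Esrrb it was 74.0%.

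CTCF is a zinc finger protein that binds a long DNA motif, insulates enhancers from promoters and, with cohesin, anchors chromatin loops. The motif can hold a CpG, and methylation of that CpG blocks CTCF at some sites, of which the imprinted control region between H19 and Igf2 is the best known. In ES cells most of the genome outside CpG islands is highly methylated, and the distal sites bound by transcription factors stand out as short stretches of lower methylation. An intermediate level can come from molecules that differ from each other or from neighbouring CpGs that differ within the same molecules, and counts per CpG do not separate these. Bisulfite sequencing also reads 5-methylcytosine and 5-hydroxymethylcytosine alike.

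The sequences of 8 bins are shown because they hold an exact match to the 13-letter CTCF consensus, in capitals, and because their CpGs illustrate the range of values described below. All are read from mm9, 5′ to 3′ on the plus strand, so that a match on the minus strand appears as its reverse complement. The first pair lies among the most deeply covered members. The bin nearest Uvrag, a gene of autophagy and endosomal traffic, holds 2 matches, and the bin nearest Tmem233 holds 1 on the minus strand.
Uvrag (chr7:106300000-106300199, plus strand): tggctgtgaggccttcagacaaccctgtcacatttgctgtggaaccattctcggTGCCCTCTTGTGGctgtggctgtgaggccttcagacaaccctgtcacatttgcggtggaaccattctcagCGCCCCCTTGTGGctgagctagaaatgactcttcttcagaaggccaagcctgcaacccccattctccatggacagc
Tmem233 (chr5:116566600-116566799, plus strand): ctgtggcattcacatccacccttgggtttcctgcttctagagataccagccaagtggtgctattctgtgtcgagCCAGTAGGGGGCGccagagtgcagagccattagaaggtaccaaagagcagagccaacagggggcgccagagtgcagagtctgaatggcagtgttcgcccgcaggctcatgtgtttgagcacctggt
In the bin nearest Cand1, the cullin exchange factor, no observation was methylated in the REST knockout library, and its match lies on the minus strand.
Cand1 (chr10:118503200-118503399, plus strand): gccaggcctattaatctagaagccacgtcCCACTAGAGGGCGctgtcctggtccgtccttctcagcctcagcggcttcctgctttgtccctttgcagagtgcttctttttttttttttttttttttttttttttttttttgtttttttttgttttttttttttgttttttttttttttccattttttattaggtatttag
The next pair lies within 20 kb of the start of an imprinted gene.
Inpp5f (chr7:135833800-135833999, plus strand): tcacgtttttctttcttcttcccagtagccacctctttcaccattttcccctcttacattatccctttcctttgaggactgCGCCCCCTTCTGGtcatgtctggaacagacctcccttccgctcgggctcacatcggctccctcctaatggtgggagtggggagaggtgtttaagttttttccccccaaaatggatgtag
Gpr1 (chr1:63266000-63266199, plus strand): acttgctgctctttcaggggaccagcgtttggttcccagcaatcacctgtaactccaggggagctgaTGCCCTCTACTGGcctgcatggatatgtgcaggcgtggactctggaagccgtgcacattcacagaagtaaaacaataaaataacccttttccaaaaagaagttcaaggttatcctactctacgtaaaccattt
The bin nearest 4931429L15Rik is the middle of a run of 3 adjacent members.
4931429L15Rik (chr9:46543800-46543999, plus strand): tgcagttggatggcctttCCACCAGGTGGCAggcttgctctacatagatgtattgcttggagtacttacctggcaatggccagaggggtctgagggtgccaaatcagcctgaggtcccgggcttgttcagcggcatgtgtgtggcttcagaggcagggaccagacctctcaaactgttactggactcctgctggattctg
The last pair has the widest differences between its CpGs.
1700066M21Rik (chr1:57396000-57396199, plus strand): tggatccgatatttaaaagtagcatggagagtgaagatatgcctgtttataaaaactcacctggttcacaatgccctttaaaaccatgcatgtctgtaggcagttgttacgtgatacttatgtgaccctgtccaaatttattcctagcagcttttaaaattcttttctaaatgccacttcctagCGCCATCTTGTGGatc
Cdh13 (chr8:121719600-121719799, plus strand): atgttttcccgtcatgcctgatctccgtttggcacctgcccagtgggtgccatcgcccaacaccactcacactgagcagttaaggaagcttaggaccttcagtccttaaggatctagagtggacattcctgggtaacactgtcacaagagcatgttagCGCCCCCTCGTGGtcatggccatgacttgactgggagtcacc

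The members were covered well above the limits in ChIP-BisSeq and thinly in the REST knockout library. Coverage per listed CpG had a median of 26 in replicate 1 and 34.5 in replicate 2, with ranges of 15 to 713 and 15 to 347.6, against a median of 5.5 in the REST knockout library. The median number of observations per bin was 75, 95 and 15 in the same order, and 298 members had no observation in the REST knockout library. Methylation, which the limits fixed to 20% to 60%, had a median of 40% in replicate 1 (quartiles 30.9% and 48.8%) and 32% in replicate 2 (quartiles 25.5% and 40.9%). Replicate 1 was the higher of the 2 in 4176 members and replicate 2 in 1806. The median of replicate 2 minus replicate 1 was -5.86 percentage points. The low bins were more covered, with medians of 40.75 and 46.6 in replicates 1 and 2, and the high bins less, with 20.5 and 25.5.

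Values passed across the limits without a step. The 947 members whose lower replicate was between 20% and 22.5% had a median of 31.25% in the REST knockout library (581 with at least 10 observations), and the 976 distal enriched bins just outside, at 17.5% to under 20%, had 28.6% (651). At the upper limit the 427 members whose higher replicate was between 57.5% and 60% had a median of 43.6% in the REST knockout library (227), against 46.5% (186) in the 346 bins over 60% to 62.5%. With a lower coverage of 15 to 17 the members' median was 40.6%, and just under the limit, at 13 to under 15, it was 41.7%.

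The REST knockout library, whose methylation was not used to choose the bins, gave intermediate values in most members. At least 10 observations were available in 3718 members, and their methylation had a median of 38.1% (95% interval of the median 37.5% to 38.7%), with quartiles of 26.8% and 50.0%. Of these, 2774 (74.6%) were between 20% and 60%, 479 (12.9%) were below 20% and 465 (12.5%) were above 60%. The same bins had medians of 39.2% (replicate 1) and 31.7% (replicate 2), so that the REST knockout median lay between the replicates. Bin by bin, the REST knockout value was above both replicates in 1569 members, between them in 861 and below both in 1288. Among the 1749 members with at least 30 observations, the median was 35.7% and 79.1% were between 20% and 60%. Medians over bins are given without a test, since bins of 1 library are not replicates. Intervals here and below cover counting error only, as copies made by PCR and CpGs on the same read are not independent.

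**Figure D1:**
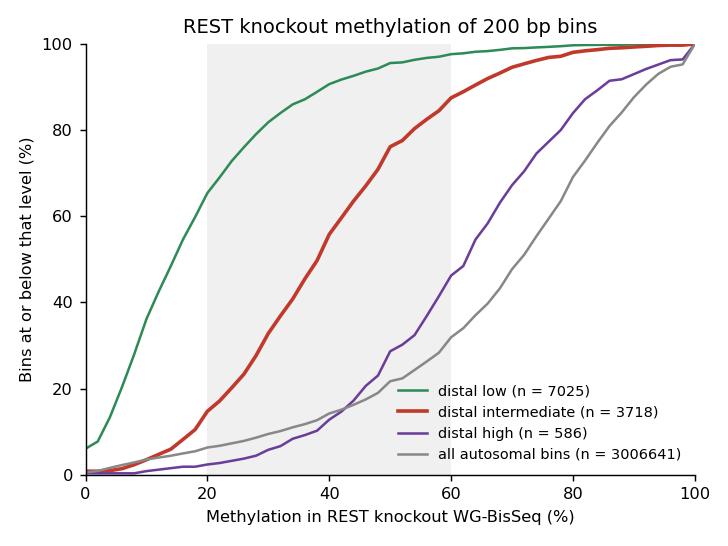
Cumulative share of 200 bp bins (vertical axis, percent) by their methylation in the REST knockout library (horizontal axis, percent), for bins with at least 10 observations. The shaded range is 20% to 60%, which holds 74.6% of the members, 34.0% of the low bins, 44.2% of the high bins and 26.0% of all autosomal bins.

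Of the other classes, the distal enriched bins that fell on different sides of a limit came closest to the members in the REST knockout library, with a median of 31.3% over 3806 bins and 62.5% of them between 20% and 60%. The median was 14.3% over 7025 low bins, 62.5% over 586 high bins, 7.14% over 2660 enriched promoter bins and 71.4% over all 3006641 autosomal bins with enough observations. The share between 20% and 60% was 34.0% in low bins, 44.2% in high bins and 26.0% in all bins. On each of 19 of 19 autosomes the members' median lay above that of the low bins and below that of the high bins. It ranged from 35.1% to 41.9% over the autosomes, while low bins ranged from 12.2% to 17.4% and high bins from 50% to 71.4%. Bins with a single CpG gave a similar value, with a median of 33.3% over 164 such members, against 38.6% over 1866 members with 4 or more CpGs.

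Among the members themselves the libraries ranked bins weakly alike. Across the 3718 members, Pearson's r between the 2 replicates was 0.390, and with the REST knockout library it was 0.192 for replicate 1 and 0.262 for replicate 2. Restricted to 1741 members with at least 30 observations in each library the values were 0.437, 0.244 and 0.373. Across the 15135 distal enriched bins, which span the whole range of methylation, the same 3 correlations were 0.835, 0.577 and 0.609. These are descriptions across bins that share sequence, mappability and, for the replicates, antibody and strain, and bins are not independent replicates.

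The intermediate level was also found when only 1 replicate set the methylation limits. Of 9723 distal enriched bins between 20% and 60% in replicate 1, 61.7% (exact 95% interval 60.7% to 62.7%) were between 20% and 60% in replicate 2. This compares with 37.0% of all distal enriched bins, which include them. The share was nearly as high, 57.6%, in the 3433 bins above 60% in replicate 1, and 8.97% in the 11076 below 20%. An intermediate level in replicate 2 thus set the chosen bins apart from the latter and little from the former. The median of the chosen bins in replicate 2 was 25.6%, and 34.3% were below 20%. With the replicates exchanged, 66.9% (65.9% to 67.9%) of 8969 bins chosen on replicate 2 were between 20% and 60% in replicate 1. This compares with 40.1% of all distal enriched bins. The share was 22.3% in the 1745 bins above 60% in replicate 2 and 24.7% in the 13518 below 20%. The median of the bins chosen on replicate 2 was 42.7% in replicate 1, and 22.0% were above 60%. Replicate 1 thus sat higher than replicate 2 in either direction of the choice. The number of bins also rested on both replicates, since the rule applied to replicate 1 alone left 10809 bins and to replicate 2 alone 15118.

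A small share of members was called different from the REST knockout library by a test of the counts. The summed counts of a bin in each replicate and in the REST knockout library were put to a two-sided Fisher's exact test, with Benjamini-Hochberg adjustment over 97913 bins that had at least 10 observations in each of the 3 libraries. A call needed an adjusted p under 0.05 and a difference of 20 percentage points or more, in the same direction for both replicates. Of 3718 members, 171 (4.60%) were lower in ChIP-BisSeq, beside 2.81% of all tested bins, and 61 (1.64%) were higher, beside 2.25%. In low bins 14.6% were called lower and in high bins 11.6% were called higher. Because the limits on ChIP-BisSeq methylation were part of the choice, nothing is read from these shares. The test compares libraries and not conditions, and a median of 15 REST knockout observations per member leaves many differences undetectable. It counts each observation as independent, although CpGs on the same read are not. It also sums CpGs that the libraries can cover unequally, so a difference can rest on which CpGs were read. Applied to replicate 2 alone, without replicate 1, the rule and the test gave 767 lower (8.71%) and 205 higher (2.33%) calls among 8808 bins. Of all bins tested, 3.57% and 7.12% were called so. Without replicate 2 they gave 408 lower (6.41%) and 452 higher (7.10%) calls among 6364 bins, beside 5.06% and 12.1%. The direction of the larger count thus turned with the replicate left out. In both cases the lower share was above, and the higher share below, that of all bins tested.

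Members called in both replicates reached large differences. A bin nearest 7420461P10Rik (chr1:164595200-164595399) had 29 of 106 observations methylated in replicate 1, 38 of 174 in replicate 2 and 10 of 10 in the REST knockout library, with adjusted p of 0.000192 and 2.4e-05 by Fisher's exact test. In an intron of Hmcn1, an extracellular matrix gene, the bin at chr1:152767600-152767799 had 83 of 144 in replicate 1, 42 of 119 in replicate 2 and 0 of 20 in the REST knockout library, with adjusted p of 9.1e-06 and 0.0053 by Fisher's exact test. Both were among the 3 members with the largest mean difference in their direction and were singled out after their values had been seen.

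The test was also made without the methylation limits on the tested replicate, while its coverage limit stayed. Bins chosen on replicate 1 and tested in replicate 2 numbered 5968, of which 827 (13.9%) were lower than the REST knockout library and 138 (2.31%) higher, beside 5.69% and 5.03% of all tested bins. Bins chosen on replicate 2 and tested in replicate 1 numbered 5237, of which 376 (7.18%) were lower and 569 (10.9%) higher, beside 4.98% and 9.65%. The median difference of the tested replicate from the REST knockout library was -6.73 percentage points in the first case and 2.81 in the second, beside -1.74 and -1.62 over all tested bins.

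The replicates were also compared with each other, bin by bin. By Fisher's exact test between the replicates, over 119219 bins, 469 of the 6000 members (7.82%) were lower in replicate 2, beside 7.58% of all tested bins, and 46 (0.767%) were higher in replicate 2, beside 2.49%. The first share was near that of all tested bins and the second was below it. Both values had been limited to 20% to 60%, so the shares are a description.

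Sequence was not part of the choice. An exact match to the CTCF consensus on either strand was found within 1602 members (26.7%), beside 0.588% of all autosomal bins with a listed CpG. The share was 31.3% in low bins, 29.6% in high bins and 12.8% in enriched promoter bins. It was 26.0% in the distal enriched bins that fell on different sides of a limit, close to that of the members. The shorter core AGGNGGC, which overlaps the consensus on its minus strand in part, was found in 31.45% of members and 9.10% of all bins. The core was found in 39.4% of low bins, 22.9% of high bins, 41.3% of enriched promoter bins and 30.3% of the bins on different sides of a limit. Within 300 bp of the bin centre 42.2% of members had a consensus match, beside 1.85% of all bins, 41.4% of low bins and 50.3% of high bins. In the bins on different sides of a limit it was likewise 42.2%. Allowing 1 mismatch raised the share within members to 52.8% and within all bins to 2.31%. A match describes letters in the window, and the absence of a match says nothing of binding.

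Classes differed in whether the match held a CpG. Of 1610 matches within members, 749 (46.5%) contained a CpG, against 59.2% of matches in low bins, 20.0% in high bins and 29.3% of all matches in bins with a listed CpG. In 741 of the 749 a CpG was formed by the first letters of the consensus, as in the Inpp5f, 1700066M21Rik and Cdh13 sequences shown above, where the capitals open with CG. Members with and without a match differed little in level. In the REST knockout library the median was 36.9% (quartiles 25.7% and 50%) over 943 members with a match and 38.5% (27.3% and 50%) over 2775 without.

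Methylation was lowest at the match and rose over the next 100 bp, in each of the 3 libraries. Over CpGs of members with at least 10 observations in the library at hand, the mean inside the match was 16.8% in replicate 1 (741 CpGs), 15.3% in replicate 2 (746 CpGs) and 20.1% in the REST knockout library (211 CpGs). At 1 to 20 bp from the match it was 31.7%, 26.9% and 27.9%, and at 21 to 50 bp it was 45.4%, 37.5% and 34.3%. At 51 to 100 bp it reached 58.1%, 45.9% and 42.2%. Beyond 100 bp, still within the bin, it was 53.0%, 47.6% and 43.7%. The order of the first 4 distances was thus the same in the 3 libraries, and the rise was smallest in the REST knockout library.

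**Figure D2:**
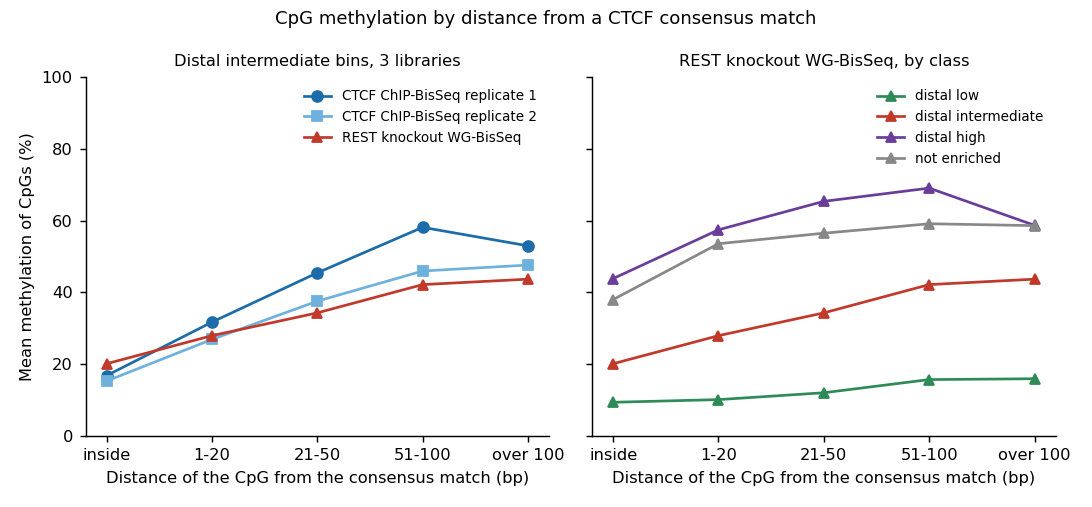
Mean methylation of CpGs (vertical axis, percent) by distance from the nearest CTCF consensus match (horizontal axis, bp), for CpGs with at least 10 observations in the library shown. Left, distal intermediate bins in the 3 libraries, all rising from 15.3% to 20.1% inside the match; right, 4 classes of bins in the REST knockout library, where the intermediate bins lie between the low and the high bins at each distance.

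Compared within the same bin, the match was the lower part in most members. In the REST knockout library, 171 members had enough observations both inside and outside a match, and 142 of them (83.0%) were lower inside, with means of 19.1% inside and 40.1% outside. In replicate 1 this held for 628 of 658 members (95.4%), with means of 14.5% and 55.5%, and in replicate 2 for 647 of 674 (96.0%), with means of 13.4% and 47.8%. The median difference, inside minus outside, was -40.6 percentage points in replicate 1, -33.1 in replicate 2 and -19.8 in the REST knockout library. Immunoprecipitation enriches for bound molecules and WG-BisSeq does not. Which part that had in the difference between libraries was not tested.

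Other classes had a gradient of the same sign in the REST knockout library at other levels. In low bins the mean was 9.34% inside the match and 15.7% at 51 to 100 bp, and in high bins it was 43.8% (23 CpGs) and 69.1% (52 CpGs). In bins that were not enriched the mean was 38.0% inside a match (685 CpGs) and 59.1% at 51 to 100 bp. A lower level inside the match was therefore not particular to the members, and whether it differed in size between classes was not tested.

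CpGs of the same bin often had unlike levels. Members held 19304 CpGs, of which 17517 had at least 20 observations over both ChIP-BisSeq replicates. Of these, 10875 (62.1%) were between 20% and 60%, 3908 (22.3%) were below 20% and 2734 (15.6%) were above 60%, and 193 (1.10%) were above 90%. In 4932 members with at least 2 CpGs of 10 or more pooled observations, the median range between the lowest and the highest CpG was 43.5 percentage points (quartiles 27.2 and 59.1). A CpG below 20% and another above 60% stood in 1535 of these bins (31.1%), and in 1111 (22.5%) each such CpG was between 20% and 60%. Counting error widens a range over few observations. With at least 20 observations the median range was 41.2 percentage points over 4773 members.

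The pattern of CpGs within a bin was shared between libraries. Each CpG was expressed as its deviation from the mean of its bin, which removes the level that the limits had fixed. Over 14459 CpGs of 4513 members, Pearson's r of these deviations was 0.703 between the replicates. Over 4555 CpGs of 1442 members it was 0.565 between replicate 1 and the REST knockout library and 0.636 between replicate 2 and the REST knockout library. CpGs of a bin share reads and sequence context, so these are descriptions across CpGs.

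Single bins with a printed sequence showed these differences CpG by CpG. In the bin nearest Cdh13, which lies in an intron of that cadherin gene, the CpG at 121719766 inside the match had 0 of 30 observations methylated in replicate 1, 1 of 58 in replicate 2 and 2 of 28 in the REST knockout library. The CpG at 121719625, 133 bp from the match, had 21 of 21, 26 of 26 and 7 of 9. High and low CpGs kept their order in the 3 libraries.

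In the bin nearest 1700066M21Rik, the CpG inside the match at 57396184 had 0 of 37 in replicate 1 and 0 of 32 in replicate 2, and no observation in the REST knockout library. The CpG at 57396006, 178 bp away, had 6 of 6 and 19 of 19. Between them, the CpG at 57396109 had 5 of 5 and 17 of 23. The value of this bin was thus a mean over CpGs from no methylated observation to all.

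In the bin nearest Uvrag, the CpG that opens the second match at 106300124 had 4 of 158 in replicate 1 and 16 of 289 in replicate 2, but 7 of 18 in the REST knockout library. The CpG at 106300051, 3 bp from the first match, had 62 of 81, 130 of 270 and 8 of 13. That first match begins with TG in place of CG and holds no CpG.

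In the bin nearest Tmem233, the CpG inside the match at 116566685 had 9 of 135, 17 of 374 and 2 of 15. The CpG at 116566737, 51 bp from the exact match, lies in ccaacagggggcg, which fits the consensus on the minus strand with 1 mismatch. It had 1 of 86 and 22 of 346 in the replicates. In the REST knockout library it had 8 of 16, which was the highest of the libraries at that CpG. At 116566768 the values were 65 of 110, 182 of 291 and 9 of 15. At the last CpG, 116566772, they were 67 of 111, 128 of 270 and 12 of 17.

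**Figure D3:**
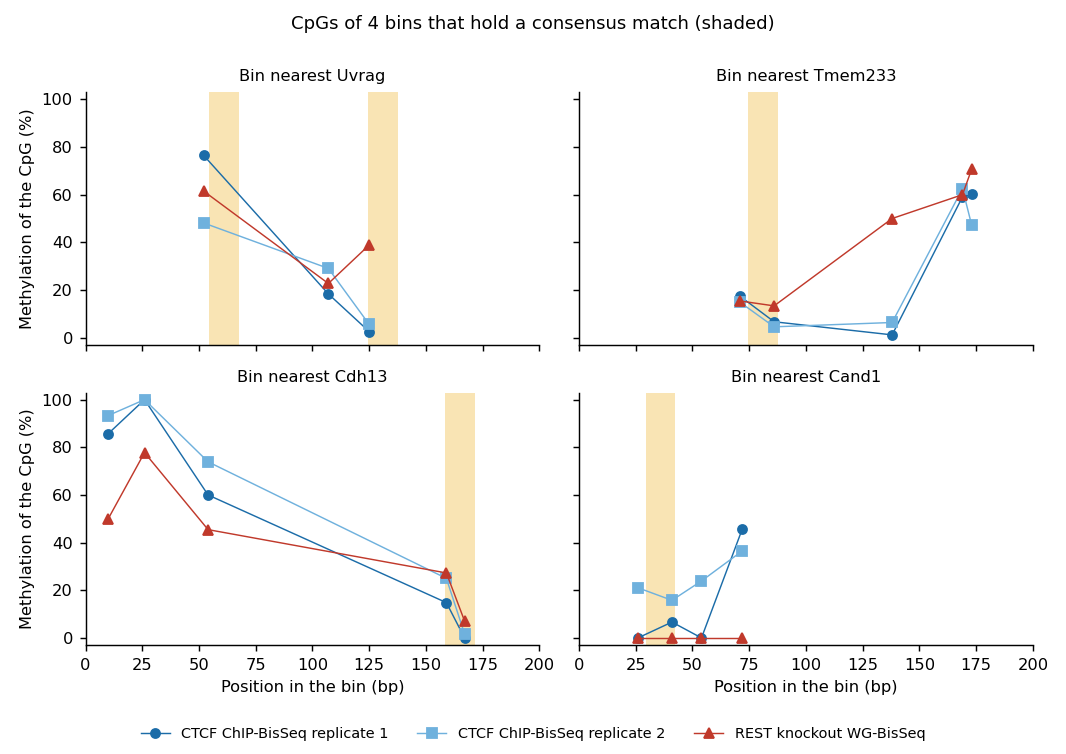
Methylation of single CpGs (vertical axis, percent) by position within the 200 bp bin (horizontal axis, bp) in 4 members, with the CTCF consensus match shaded and the 3 libraries as separate lines. CpGs inside the match were low in ChIP-BisSeq in all 4 bins, at 25% or less in either replicate, and in the bin nearest Cand1 each CpG was at 0 in the REST knockout library.

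Intermediate methylation was local. In the REST knockout library the median over bins adjoining a member was 52.3% on 1 side and 52.9% on the other, at 400 bp it was 63.6% and 65.2%, and from 1000 to 2000 bp it stayed between 69.4% and 70.7%. Summed over both flanks from 1000 to 2000 bp, the median was 68.9% (68.6% to 69.3%) over 5956 members, 64.1% over low bins and 70.8% over high bins, against 38.1% in the members themselves. The flanks of members thus lay within 5 percentage points of those of the other classes, while the bins differed by over 20. In ChIP-BisSeq the coverage fell away from the bin, from a median of 26 per CpG to 5 in adjoining bins in replicate 1, so flanking values in those libraries rest on few bins and are not given.

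**Figure D4:**
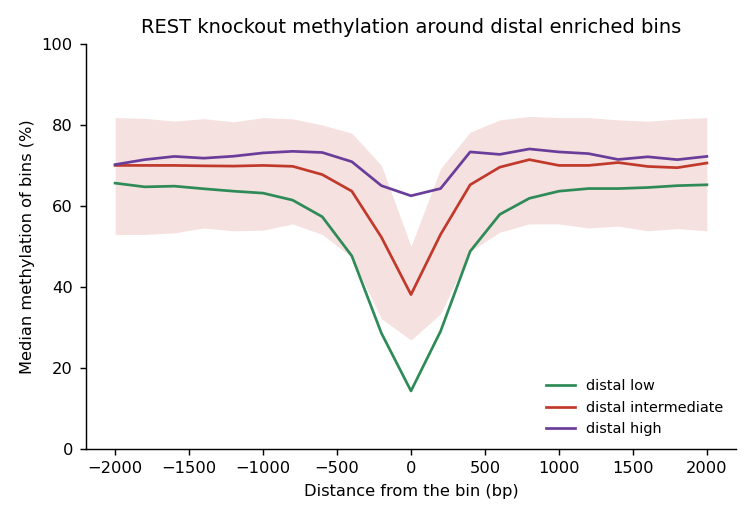
Median methylation in the REST knockout library (vertical axis, percent) of 200 bp bins by distance from distal enriched bins (horizontal axis, bp), with the quartiles of the intermediate bins shaded. The intermediate bins drop from about 70% to 38.1% at the centre, the low bins to 14.3% and the high bins to 62.5%.

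Most members stood alone. They formed 5686 runs of adjacent bins, of which 5375 were single bins, 308 were pairs and 3 were runs of 3. No other enriched bin was found within 400 bp of 4278 members (71.3%). A low bin or an enriched promoter bin lay within 400 bp of 931 members (15.5%). Those 931 members had a consensus match in 4.51% of cases and were a local maximum of ChIP-BisSeq coverage in 16.4%, against 32.6% and 91.7% of the members without an enriched neighbour. In the REST knockout library the median was 36.6% over 620 members beside a low or promoter bin and 38.5% over 2558 members without an enriched neighbour. Without the members beside a low or promoter bin, 30.8% of 5069 members held a consensus match.

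Members lay for the most part between genes and in introns. Bin centres lay between genes in 2990 members (49.8%) and in introns of protein-coding genes in 2498 (41.6%), beside 53.1% and 40.1% of all autosomal bins. A coding exon held 166 and a UTR 143. The median distance to a protein-coding TSS was 22020 bp, against 16127 bp for low bins, 25426 bp for high bins and 41743 bp for all bins. GC content had a median of 48% in members, 50% in low bins, 45.5% in high bins and 44.5% in all bins, and the median number of CpGs was 3, 4, 2 and 2. The members were thus between low and high bins in each of these features. Per autosome there were 152 to 528 members, which was 21.8% to 26.8% of the distal enriched bins there.

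In 9 of the most deeply covered members with enough observations, exact 95% intervals were compared. The REST knockout interval overlapped that of at least 1 replicate in 7, the others being those nearest Dnahc8 and Tmem233. This overlap says little of agreement, since the limits fixed both replicates to intermediate values and 1 replicate sufficed. Some REST knockout intervals were also wide, at 18.7% to 81.3% nearest Fam73a (5 of 10) and 28.9% to 82.3% nearest Klhl31 (8 of 14). They were narrower at Pink1 (24.3% to 43.4%) and Hpca (30.6% to 46.1%). Within Pink1, which encodes a mitochondrial kinase, the intronic bin at chr4:137875400-137875599 had 38.7% in replicate 1 (241 of 622), 33.1% in replicate 2 (575 of 1738) and 33.3% in the REST knockout library (34 of 102). Within Hpca, which encodes the calcium sensor hippocalcin, the intronic bin at chr4:128790200-128790399 had 46.6% (173 of 371), 28.4% (310 of 1093) and 38.1% (61 of 160). By Fisher's exact test neither was called different from the REST knockout library, but the replicates differed from each other at Hpca, with an adjusted p of 6.76e-08 by Fisher's exact test.

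Within Dnahc8, an axonemal dynein gene, the intronic bin at chr17:30818800-30818999 had 50.5% (138 of 273), 38.5% (159 of 413) and 100% (10 of 10, exact 95% interval 69.2% to 100%). Those 10 were 5 of 5 at each of 2 CpGs, 30818826 and 30818829, so they can come from the same reads. The bin was called lower in ChIP-BisSeq, with adjusted p of 0.0142 and 0.00138 by Fisher's exact test, which counts them as independent. None of the 9 was called higher.

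**Figure D5:**
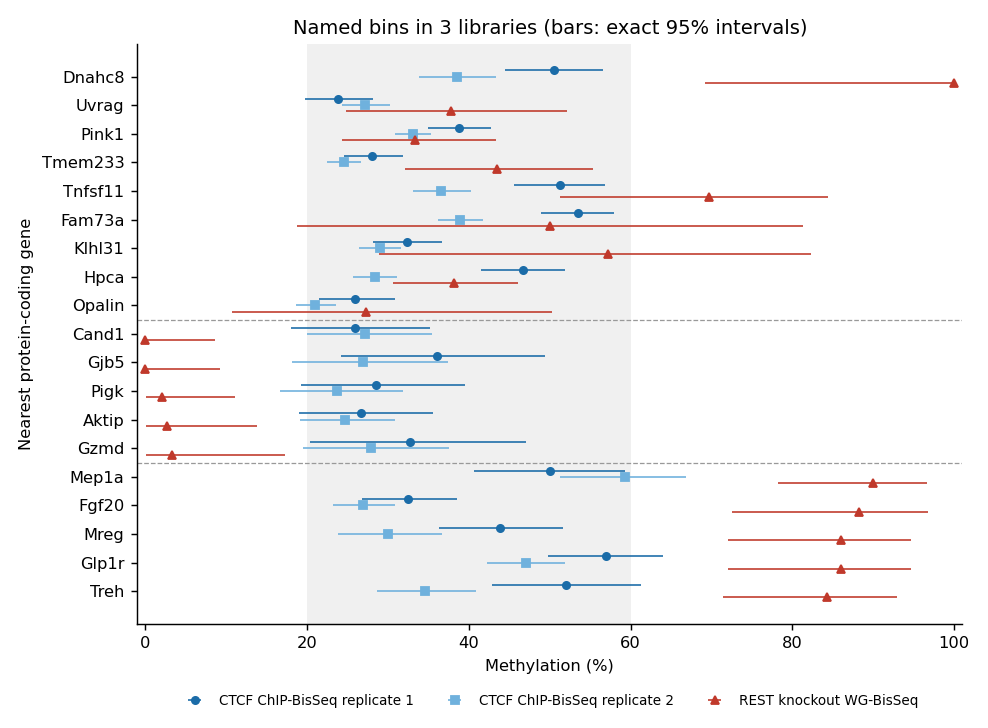
Methylation (horizontal axis, percent) of named members in the 3 libraries, listed by the nearest protein-coding gene (vertical axis), with exact 95% intervals. From top to bottom, 9 of the most deeply covered members, the 5 with the lowest and the 5 with the highest REST knockout methylation among members with at least 30 observations; the REST knockout values of the last 2 sets lie at 0 to 3.33% and at 84.3% to 90%.

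Members at the ends of the REST knockout range were intermediate in both ChIP-BisSeq replicates by the choice, and each was called different. They were picked for that difference, so the calls are a description. The bin nearest Cand1 (chr10:118503200-118503399) had 28 of 108 observations methylated in replicate 1, 37 of 136 in replicate 2 and 0 of 41 in the REST knockout library (exact 95% interval up to 8.60%). Near Gjb5, a connexin gene, the bin at chr4:127040800-127040999 had 22 of 61, 24 of 89 and 0 of 38. The bins nearest Pigk, Aktip and Gzmd had 1 methylated observation each, of 48, 38 and 30.

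At the other end the bin nearest Mep1a, a metalloprotease gene, which lies in a UTR of Gpr116 (chr17:43595600-43595799), had 59 of 118, 96 of 162 and 45 of 50. Its CpG at 43595771 had 3 of 33, 2 of 23 and 1 of 1, so a low CpG was scarcely read in the REST knockout library. Near Fgf20, a fibroblast growth factor gene, the bin at chr8:41236400-41236599 had 84 of 259, 141 of 524 and 30 of 34, with adjusted p of 4.45e-08 and 1.23e-10 by Fisher's exact test. The bins nearest Mreg, Glp1r and Treh had 37 of 43, 37 of 43 and 43 of 51 in the REST knockout library. In these 5 bins the REST knockout value was above both replicates and in the previous 5 it was below both.

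Imprinted genes, which are expressed from 1 parental allele, often have a control region methylated on only 1 parental allele and hence at an intermediate level. Within 20 kb of the start of a listed imprinted gene there were 7 members. Near Plagl1, a zinc finger gene, the bin at chr10:12807200-12807399 had 31.8% in replicate 1 (69 of 217), 29.1% in replicate 2 (48 of 165) and 28% in the REST knockout library (7 of 25), and the adjoining member had 10 of 20, 9 of 24 and 1 of 6. The bin near Gpr1 (chr1:63266000-63266199), whose sequence is shown above, had 57.7% (56 of 97), 45.6% (62 of 136) and 63.8% (30 of 47). At both regions the intervals of the 3 libraries overlapped. The REST knockout intervals were wide, at 12.1% to 49.4% for the first Plagl1 bin and 48.5% to 77.3% near Gpr1. The overlap therefore says little of agreement.

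In an intron of Cobl, an actin nucleator gene, the bin at chr11:12273400-12273599 had 58.1% (43 of 74), 44% (33 of 75) and 21.1% (12 of 57). By Fisher's exact test it was higher than the REST knockout library in replicate 1, with an adjusted p of 0.000593, and not in replicate 2, with an adjusted p of 0.0527, so it was not called. In an intron of Inpp5f, a phosphoinositide phosphatase gene, the bin at chr7:135833800-135833999 had 33.7% (68 of 202), 28.3% (51 of 180) and 3 of 7, and inside its match 1 of 57, 12 of 55 and 0 of 1. All 3 methylated REST knockout observations were at 135833803, where the replicates had 0 of 1 and 1 of 9. The members in an intron of Trappc9 and nearest Gm16378, within 20 kb of the start of Cdh15, had 2 of 4 and 3 of 12 in the REST knockout library.

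Over gene lists, 8 of 53 imprinted genes measured (15.1%) were the nearest gene of a member within 50 kb, beside 3414 of 21281 protein-coding genes (16.0%). That share was near the background. It was 5 of 25 for pluripotency regulators, 3 of 14 for germ layer and patterning factors and 1 of 8 for CTCF and cohesin genes, where the member lay near Ctcf itself. For methylation and demethylation enzymes it was 5 of 9, each with 1 member. No test of the lists was made.

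The 5 enzymes were the DNA methyltransferase genes Dnmt3a and Dnmt3b, their cofactor Dnmt3l, and the dioxygenase genes Tet1 and Tet2. The intronic bin of Tet1, at chr10:62325400-62325599, had 52.6% in replicate 1 (38 observations), 58.2% in replicate 2 (67) and 33.3% in the REST knockout library (15). Near Dnmt3l, the bin at chr10:77490800-77490999 had 59.7% (62), 20.3% (64) and 53.3% (15). The replicates were alike at Tet1 and far apart at Dnmt3l. The other 3 had 10 or fewer observations in the REST knockout library.

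Of the pluripotency regulators, Nodal, a signalling ligand, held a member in a coding exon (chr10:60886000-60886199) with 33.5% in replicate 1 (176 observations), 24.7% in replicate 2 (174) and 16.7% in the REST knockout library (66). Esrrb, an orphan nuclear receptor gene, held 1 with a consensus match in an intron (chr12:87849600-87849799), at 42.2% (45), 20.4% (93) and 83.3% (12). The bins near Prdm14, Tbx3 and Tdgf1 had 40.9%, 30% and 37.0% in the REST knockout library, between the values of those in Nodal and Esrrb.

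The longest runs showed a change of level along neighbouring bins. The 3 bins from chr17:31011200 to 31011799, in an intron of Dnahc8 and nearest to Glp1r, had 46.9%, 23.9% and 40.2% in replicate 1, and 48.6%, 28.4% and 20.6% in replicate 2. In the REST knockout library they had 69.4% (25 of 36), 20.8% (42 of 202) and 16.4% (21 of 128). The 3 bins from chr9:46543600 to 46544199, nearest 4931429L15Rik at a distance of over 400 kb, had 13.3% (6 of 45), 22.0% (9 of 41) and 48.1% (13 of 27) in the REST knockout library. The 3 near Tmem121 (chr12:114460200 to 114460799) had 29.7%, 40% and 37.8%. REST knockout methylation thus differed by over 30 percentage points along 2 of the runs and by about 10 along that near Tmem121. These values sum CpGs that were read unequally. In the first bin near Glp1r, 21 of the 36 observations were at 1 CpG, and the last bin near 4931429L15Rik holds 1 CpG. Whether the differences rest on which CpGs were read was not tested.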

How the data were processed

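Methylation was measured by CTCF ChIP-BisSeq in wild type mouse ES cells (2 libraries) and by WG-BisSeq in REST knockout ES cells (1 library, amplified by 10 PCR cycles). The authors deposited, per CpG, the count of observations and the count of methylated observations, as whole numbers without normalization. The submitters' processing notes name mm9 and Bowtie 0.10.0.1. Whether PCR duplicates were removed is not given in the sources used here.

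Counts of both kinds were summed in 200 bp bins on autosomes. Coverage was divided by the CpGs listed in any of the 3 libraries. Genes are from GENCODE vM1, with a TSS at the 5′ end of each protein-coding transcript of a protein-coding gene. Each bin was tested by Fisher's exact test with Benjamini-Hochberg adjustment over all tested bins. The procedure was tested on simulated independent counts, which held no shared reads or PCR copies. Analyses used Python 3.11.15, NumPy 2.4.6, pandas 2.3.3, SciPy 1.17.1 and matplotlib 3.10.9. Intervals of shares are exact Clopper-Pearson 95% intervals, and those of medians come from order statistics. The members, the gene lists and the tests were chosen with earlier results of these data known.

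Bins named in the text are the 10 with the highest lower-replicate coverage (at least 2 CpGs with 10 observations in each replicate and 10 REST knockout observations), the 5 lowest and 5 highest in REST knockout methylation with at least 30 observations, those within 20 kb of an imprinted gene start, the 3 longest runs, and the 5 with the widest range between CpGs. Sequences are shown for those with a consensus match, at most 2 of each set. Of the 10 most covered bins, 1 is not reported here. Alternatives changed the coverage minimum, the grid, the coverage denominator, the methylation limits, the TSS distance, the observation minimum, the adjustment, the minimal difference, the motif and the replicates used.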

Additional observations from a re-analysis of the deposited data

How the results depend on the processing

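As reported, more members were called lower than the REST knockout library (171, beside 2.81% of all tested bins) than higher (61, beside 2.25%). Without replicate 2 more were called higher (452 or 7.10%, beside 12.1% of all tested bins) than lower (408 or 6.41%, beside 5.06%). Of 102 alternative values, 64 stayed within the interval of the reported value or, for counts, within 1.5 times of it. Limits of 25% to 55% gave 3576 members, a REST knockout median of 39.6% and a range between CpGs of 45.6 percentage points. Of the 2225 of them tested, 93 were called lower than the REST knockout library, beside 2.81% of all tested bins. Between the replicates, 109 members were lower and 9 higher in replicate 2, beside 7.58% and 2.49% of all tested bins. A coverage minimum of 10 gave a REST knockout median of 38.9% and a consensus in 23.9%. A minimum of 20 gave 37.3%, 29.4% and 60.3% of bins chosen on replicate 1 at 20% to 60% in replicate 2. With that minimum, 30 of 4219 members were higher in replicate 2, beside 2.49% of all tested bins. At least 5, 20 or 30 REST knockout observations gave medians of 39.1%, 36.4% and 35.7%, the last of these chosen after the data had been seen. Bonferroni adjustment left 7 members lower and 2 higher than the REST knockout library, beside 0.489% and 0.111% of all tested bins. A minimal difference of 30 percentage points left 113 and 22, beside 1.90% and 1.80%, and pooling the replicates in 1 test gave 349 and 146, beside 5.91% and 8.18%. A grid shifted by 100 bp gave a consensus in 27.9%, the shorter core 31.45%, 1 mismatch 52.8%, and leaving out members beside low or promoter bins (likewise chosen after seeing the data) 30.8%. CpGs with at least 20 observations gave a range of 41.2 percentage points.

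Leaving out 1 ChIP-BisSeq replicate gave 10809 to 15118 members, a REST knockout median of 34.2% to 40.9% and a consensus in 22.6% to 26.1%. The range between CpGs was 38.4 to 48.1 percentage points and the flanking median 68.2% to 68.8%. Without replicate 1 there were 767 lower (8.71%) and 205 higher (2.33%) calls, beside 3.57% and 7.12% of all tested bins. Without replicate 2 there were 408 (6.41%) and 452 (7.10%), beside 5.06% and 12.1%. The share read in the other replicate was 61.6% to 62.0%. Calls between the replicates cannot be computed without 1 of them. The causes were not tested. No paired analysis was possible because the REST knockout group has 1 library and its label carries no replicate number. Depth limits the REST knockout values, since 3718 of 6000 members had at least 10 observations there.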

Other observations

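Taking TSSs as gene starts in place of transcript starts gave 6056 members, with the same REST knockout median of 38.1%. Protein-coding genes with the most members nearest to them were Rbm19 with 7 and Mbp and Abr with 6 each. The members lay in 2561 of the 500 kb tiles of the autosomes, with a median of 2 in each tile that held any.

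The bin near Foxa2, an endoderm factor gene, at chr2:147908200-147908399 had 30.6% in replicate 1 (235 observations) and 30.4% in replicate 2 (339), but 79.4% in the REST knockout library (63), while the adjoining member had 55.6% (36), 40.4% (47) and 33.3% (6). The bin near Ctcf at chr8:108146200-108146399 had 20.7% (58), 29.4% (85) and 50% (72). The 2 bins near Usp29, of the imprinted Peg3 domain, had 35% (40) and 35.3% (17) in the REST knockout library, between 21.7% and 46.8% in ChIP-BisSeq. These bins come from the gene lists and not from the rule for named bins.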
